A study of Mus musculus with 6 samples.

Results

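The T helper lineage transcription factors examined here were Gata3, Tbx21, Bcl6, Prdm1, Irf4, Stat3, Stat4, Stat6, Nfil3 and Bhlhe40. They were chosen by gene symbol, and every probe set that the platform annotation assigned to exactly 1 of these symbols was kept. All 10 genes were measured, by 15 of the 22626 probe sets tested, among 12393 genes in all. RNA from magnetically separated CD4+CD25+ regulatory T cells (Tregs) was hybridised to 6 Affymetrix Mouse430A arrays. The HDAC11-/- Tregs (3 arrays) came from fl-HDAC11/Foxp3cre mice, which carry floxed alleles of the deacetylase gene Hdac11 and a Cre recombinase driven by Foxp3, so that the deletion is limited to cells that have expressed Foxp3. The WT Tregs (3 arrays) came from wild type C57BL6 mice, for which the labels name no Cre, so the Foxp3-Cre allele and the loss of HDAC11 cannot be told apart. Per the methods, the mice were several weeks old and the modified strains had been backcrossed to C57BL/6. The arrays of a genotype were described as independent samples, without saying whether each was 1 mouse or a pool, so the p-values describe the spread among these arrays and no more.

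CD4+ T cells take on specialised programs under the control of a small set of transcription factors. T-bet (Tbx21) drives the Th1 program, GATA3 the Th2 program and BCL6 the follicular helper (Tfh) program, while Blimp-1 (Prdm1) and BCL6 repress each other. The STAT proteins carry cytokine signals to these programs: STAT4 responds to IL-12, STAT6 to IL-4, and STAT3 to IL-6, IL-21 and IL-23. IRF4 binds DNA with partners of the BATF and JUN families. In mice, IRF4 and Blimp-1 also act in effector Tregs, where they promote expression of Il10. NFIL3 is a basic leucine zipper repressor. BHLHE40, a basic helix-loop-helix repressor, represses Il10 in mouse T cells.

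Promoter sequences are shown for the members with the clearest differences that had one, and for Bcl6, whose windows held the most motif matches. RefSeq (GRCm38.p6) gave entries for 9 of the 10 members, in 11 windows, and none for Bhlhe40. The 250 bases before each start site are printed 5′ to 3′ on the gene's strand, and capitals mark matches to the motifs listed after them. The Nfil3 window is chr13:52981040-52981289 (minus strand), the Irf4 window chr13:30748983-30749232 (plus strand), the Prdm1 window chr10:44458749-44458998 (minus strand), and the Bcl6 windows chr16:23981284-23981533 and chr16:23988853-23989102 (both minus strand). The Nfil3, Prdm1 and first Bcl6 windows lie inside the annotated gene, before an internal start.
Nfil3: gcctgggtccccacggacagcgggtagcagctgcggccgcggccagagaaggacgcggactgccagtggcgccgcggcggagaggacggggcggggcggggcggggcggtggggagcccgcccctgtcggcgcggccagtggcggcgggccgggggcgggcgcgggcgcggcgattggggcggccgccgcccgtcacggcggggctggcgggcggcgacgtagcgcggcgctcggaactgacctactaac
Irf4: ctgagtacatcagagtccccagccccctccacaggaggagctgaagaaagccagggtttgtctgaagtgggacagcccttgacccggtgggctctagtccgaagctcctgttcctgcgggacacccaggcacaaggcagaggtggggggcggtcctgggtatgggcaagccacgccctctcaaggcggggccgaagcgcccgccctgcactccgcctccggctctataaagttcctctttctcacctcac
Prdm1: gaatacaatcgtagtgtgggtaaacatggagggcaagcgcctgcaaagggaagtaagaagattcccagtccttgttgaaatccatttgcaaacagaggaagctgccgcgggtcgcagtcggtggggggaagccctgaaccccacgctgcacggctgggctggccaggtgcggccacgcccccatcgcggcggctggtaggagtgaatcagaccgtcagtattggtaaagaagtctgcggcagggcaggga
Bcl6, internal start: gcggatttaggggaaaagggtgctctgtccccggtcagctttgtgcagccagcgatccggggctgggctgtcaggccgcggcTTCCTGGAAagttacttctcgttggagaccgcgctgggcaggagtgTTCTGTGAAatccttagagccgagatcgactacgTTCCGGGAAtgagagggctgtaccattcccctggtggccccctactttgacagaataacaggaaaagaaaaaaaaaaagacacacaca
Bcl6, first start: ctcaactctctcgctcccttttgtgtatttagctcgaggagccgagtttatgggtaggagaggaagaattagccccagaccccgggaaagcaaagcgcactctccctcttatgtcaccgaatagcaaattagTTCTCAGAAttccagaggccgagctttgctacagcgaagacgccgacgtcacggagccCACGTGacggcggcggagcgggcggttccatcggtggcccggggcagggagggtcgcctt

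The motifs were chosen after values of these arrays had been seen and were searched on both strands. They were the E-box CACGTG, found in 6.02% of 32851 RefSeq windows of the same length, the STAT motif TTCNNNGAA (7.02%), the AP-1 motif TGACTCA or TGAGTCA (4.46%), the CRE motif TGACGTCA (1.55%), the NFIL3 motif TTACGTAA or TTATGTAA (0.931%) and the GATA motif AGATAA (9.99%). The internal Bcl6 window held 3 STAT matches, at 168 to 160, 122 to 114 and 88 to 80 bases before the start. The other Bcl6 window held 1 STAT match, 118 to 110 bases before the start, and 1 E-box, 60 to 55 bases before it. None of these letters occurred in the windows of the other members. The Nfil3 window was 81.6% G and C, against a median of 52.4% over all windows. The matches describe sequence only.

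Values are log2 RMA intensities, where 1 unit is a 2-fold difference, and a level is read only against the brightest bacterial control on that array, since the files hold no detection calls. That control lay between 5.06 and 5.28 on the HDAC11-/- arrays and between 5.27 and 5.48 on the WT arrays. Where a gene had several probe sets, the brightest over the 6 arrays stood for it. A gene was called when limma's adjusted p was under 0.05 and the genotypes differed 1.5-fold or more. Genotype separated the arrays on the first principal component, which held 80.9% of the variance, and correlations ran from 0.998 to 0.999 within HDAC11-/-, were 0.997 within WT and ran from 0.985 to 0.988 between genotypes. Over all probe sets 876 were called higher and 1138 lower. Scaling on 12 reference genes instead of RMA alone gave 493 higher and 1933 lower, since it moved the median log2 fold change of all genes to -0.18, against -0.04 as analysed. The Hdac11 probe set 1451229_at did not pass the test (log2 fold change -0.12, SE 0.07, limma adjusted p = 0.222), nor did 1454803_a_at (-0.10, SE 0.12, limma adjusted p = 0.532). Whether either probe set falls within the floxed segment is not known here, so they do not check the labels. Foxp3 lay below the bacterial controls on all 6 arrays, although all 7 measured T cell markers and the other 5 of 6 Treg markers were above them.

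Of the 10 members, 1 (Bhlhe40) was called higher in HDAC11-/- Tregs and none was called lower, where 3.46% of all genes were called higher and 3.72% lower. By unadjusted p under 0.05 in limma, 6 members were higher and 4 lower, against 25.8% and 28.1% of all genes, and SAM, the permutation method named in the study's methods, also called 1 higher and none lower, against 3.47% and 3.73% of all genes. By the adjusted p of limma without the fold threshold, 4 members were higher (Bhlhe40, Nfil3, Irf4 and Prdm1) and 4 lower (Stat3, Stat4, Stat6 and Tbx21), against 22.9% and 23.2% of all genes. The genotypes did not overlap in the brightest probe set of all 10 genes, 6 of them higher and 4 lower, where 57.8% of all genes had no overlap. The median log2 fold change of the members was 0.14, against -0.04 over all genes, and the median absolute log2 fold change was 0.27, against 0.19. In the brightest probe sets every member lay above the bacterial controls on all 6 arrays, by 2.37 to 6.03 log2 units on average. Of the 15 probe sets, 13 were above the controls on all arrays, 1 was called higher (3.87% of all probe sets were) and none lower (5.03%), with 4 higher and 4 lower by adjusted p alone (23.2% and 22.4% of all probe sets). In 12 of the 15 the genotypes did not overlap, 6 higher and 6 lower, where 56.7% of all probe sets had no overlap, 28.2% higher and 28.5% lower.

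**Figure D1:**
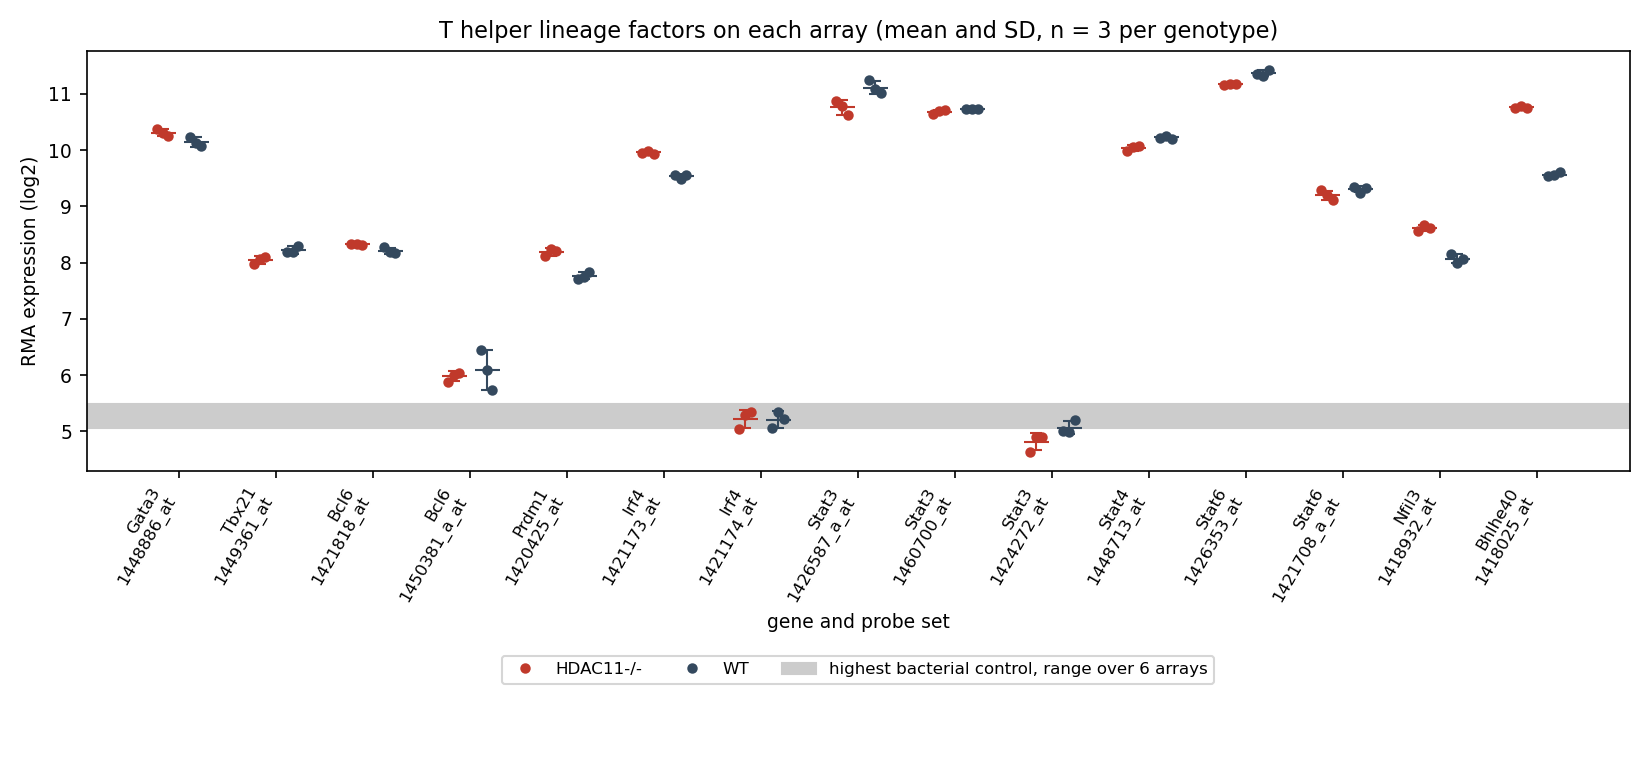
RMA expression (log2, y axis) of the 15 probe sets of the members (x axis) on each array, with HDAC11-/- in red left of WT in dark blue, the mean and SD (n = 3 per genotype) as lines, and the range of the highest bacterial control over the 6 arrays as a grey band. Bhlhe40 shows the widest gap, with 10.75 to 10.77 in HDAC11-/- and 9.53 to 9.60 in WT, and the dim probe sets of Irf4 and Stat3 lie in or below the band.

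Among the repressors, Bhlhe40 was the member with the largest difference and the only one called. Bhlhe40 (1418025_at) measured 10.75, 10.77 and 10.75 on the HDAC11-/- arrays and 9.53, 9.56 and 9.60 on the WT arrays. All HDAC11-/- arrays were more than 1 log2 unit above every WT array. The means were 10.76 ± 0.01 in HDAC11-/- and 9.56 ± 0.03 in WT (SD, n = 3 each), a 2.29-fold difference. In limma the log2 fold change was 1.19 (SE 0.04, 95% confidence interval 1.09 to 1.30, adjusted p = 8.59e-06). It ranked 110 from the highest among 12393 genes, and 1.44% of genes had a larger absolute log2 fold change.

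Nfil3, the basic leucine zipper repressor whose GC-rich window is printed above, was higher by adjusted p but stayed under the fold threshold. Nfil3 (1418932_at) measured 8.56, 8.66 and 8.62 in HDAC11-/- Tregs and 8.16, 7.99 and 8.06 in WT Tregs. The genotypes were separate, with WT array 1 nearest to the HDAC11-/- arrays. The log2 fold change was 0.54 (1.46-fold, SE 0.06, 95% confidence interval 0.40 to 0.68, limma adjusted p = 0.000621). Since the interval holds 0.58, the log2 of 1.5, the data do not place Nfil3 on either side of that threshold. Without WT replicate 1 it was 0.59 and Nfil3 was called.

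Irf4 and Prdm1, which act together in effector Tregs of mice, were both 1.34-fold higher by adjusted p, below the fold threshold. Irf4 (1421173_at) measured 9.95, 9.99 and 9.94 in HDAC11-/- Tregs and 9.55, 9.49 and 9.56 in WT Tregs. Prdm1 (1420425_at) measured 8.11, 8.25 and 8.20 in HDAC11-/- Tregs and 7.71, 7.75 and 7.83 in WT Tregs. In both genes every HDAC11-/- array was above every WT array. The log2 fold change of Irf4 was 0.42 (SE 0.05, 95% confidence interval 0.32 to 0.53, limma adjusted p = 0.000593), and 15.4% of genes had a larger absolute value. That of Prdm1 was also 0.42 (SE 0.06, 95% confidence interval 0.29 to 0.56, limma adjusted p = 0.00145). Both upper bounds lie below 0.58.

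The second Irf4 probe set (1421174_at) lay in the range of the bacterial controls. It measured 5.05, 5.30 and 5.34 in HDAC11-/- Tregs, where 2 arrays exceeded their control, and 5.06, 5.35 and 5.23 in WT Tregs, where none did. The genotypes overlapped, and the log2 fold change was 0.019 (SE 0.10, limma adjusted p = 0.897), so no Irf4 difference is read from it. Its sign turned with scaling on the reference genes (-0.13). Of 7987 pairs of a brightest and another probe set of a gene, 31% differed in their genotype difference by adjusted p in limma. The Irf4 pair was the 1 pair of the members among them, but with a probe set not above background no disagreement is read from it, and without HDAC11-/- replicate 1, 2 or 3 or WT replicate 2 the count was 0.

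Blimp-1 and IRF4 are also expressed in plasma cells and B cells, and markers of those cells moved with genotype. Of 8 measured B cell markers, 4 fell in HDAC11-/- Tregs, and their summed linear level was 762 to 784 on the HDAC11-/- arrays and 1186 to 1249 on the WT arrays. Among them Ms4a1, which encodes CD20, had a log2 fold change of -1.84, while Pax5, Fcrla and Ebf1 lay at or below the bacterial controls in both genotypes. Cd79b was also lower in limma without the fold threshold (-0.36, adjusted p = 0.00544). Of 5 measured plasma cell markers, 1 (Sdc1, -0.76) fell. By adjusted p in limma without the fold threshold Jchain was also lower (-0.21, adjusted p = 0.0190) and Xbp1 higher (0.21, adjusted p = 0.00788). The sums were 4256 to 4314 in HDAC11-/- and 4116 to 4194 in WT, and without Xbp1 1425 to 1506 in HDAC11-/- and 1669 to 1781 in WT. Dendritic cells and macrophages also express Irf4 and Prdm1. Of 5 measured dendritic cell markers, 1 fell (H2-Aa, an MHC class II gene, -1.60) and Xcr1 lay below the controls. Itgax (-0.39, adjusted p = 0.00129) and Zbtb46 (-0.26, adjusted p = 0.0444) were also lower in limma without the fold threshold, and none was higher. The sums were 936 to 977 in HDAC11-/- and 2517 to 2567 in WT. H2-Aa, which B cells and macrophages express too, made up 80.7% to 81.7% of the sum in HDAC11-/- and 91.6% to 93.0% in WT, and without it the sums were 172 to 180 in HDAC11-/- and 180 to 214 in WT. Of 9 measured monocyte or macrophage markers, 2 were called higher (C1qa, at least 1.16-fold, and C1qb, below the controls in both genotypes), and the sums were 339 to 399 in HDAC11-/- and 321 to 341 in WT. Without the fold threshold Lyz2 (at least 1.12-fold, limma adjusted p = 0.00032) and Cd68 (0.37, limma adjusted p = 0.0217) were also higher. Fcgr3 was lower (-0.50, limma adjusted p = 0.0204), and Csf1r was called higher by 2 dimmer probe sets only. The part of these markers in the Irf4 and Prdm1 differences was not tested. In bulk RNA, fewer cells of a type and less RNA per cell cannot be told apart.

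Of the factors that define the Th1, Th2 and Tfh programs, none was called in limma or SAM, and only Tbx21 passed the adjusted p, although all 3 (Tbx21, Gata3 and Bcl6) had an unadjusted limma p under 0.05. Tbx21 (1449361_at), which encodes T-bet, measured 7.97, 8.06 and 8.11 in HDAC11-/- Tregs and 8.18, 8.18 and 8.30 in WT Tregs. Every HDAC11-/- array was below every WT array, the nearest pair being 8.11 in HDAC11-/- and 8.18 in WT. The log2 fold change was -0.18 (SE 0.06, 95% confidence interval -0.32 to -0.03, limma adjusted p = 0.0498). It lost the threshold with any 1 array left out, with adjusted p from 0.0641 to 0.146 in limma, and under SAM (q = 0.116). It also lost it with weighted arrays and on the bacterial control scale. CD8 T and NK cells also express Tbx21. Of 6 measured markers of those cells, 1 fell (Ncr1, log2 fold change -1.04). By adjusted p in limma without the fold threshold Klrd1 was also lower (-0.34, adjusted p = 0.00276) and Cd8b1 higher (0.42, adjusted p = 0.00671). The summed linear level was 1307 to 1439 in HDAC11-/- and 1376 to 1403 in WT, and without Nkg7, the largest contributor, 584 to 607 in HDAC11-/- and 603 to 656 in WT. Their part was not tested.

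Gata3 (1448886_at), the Th2 factor that Tregs also express, measured 10.37, 10.31 and 10.25 in HDAC11-/- Tregs and 10.23, 10.13 and 10.07 in WT Tregs. The arrays did not overlap. The log2 fold change was 0.17 (SE 0.06, 95% confidence interval 0.02 to 0.31, limma adjusted p = 0.0662), which missed the threshold. It passed in limma with a trended robust prior (adjusted p = 0.00917), with the replicate block (0.0470), on the bacterial control scale (0.0455), after the dim filter (0.0401) and without WT replicate 1 (0.0371), missed it in the other alternatives, with SAM giving q = 0.133, and came to a log2 fold change of 0.020 on the reference gene scale.

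Bcl6, the Tfh factor with STAT motif matches in both windows, had 2 probe sets that pointed in different directions without passing the test. The brighter one (1421818_at) measured 8.34, 8.33 and 8.32 in HDAC11-/- Tregs and 8.27, 8.18 and 8.17 in WT Tregs. Its arrays did not overlap, and the log2 fold change was 0.12 (SE 0.05, limma adjusted p = 0.0770), with its sign turned (-0.025) on the reference gene scale. The dimmer one (1450381_a_at) measured 5.88, 6.01 and 6.05 in HDAC11-/- Tregs and 6.45, 6.10 and 5.74 in WT Tregs. The genotypes overlapped, WT being the more spread, and the log2 fold change was -0.12 (SE 0.17, limma adjusted p = 0.602), with its sign turned (0.059) without WT replicate 1. The probe sets were not shown to differ from each other (dimmer minus brighter -0.24, SE 0.15, limma adjusted p = 0.276).

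**Figure D2:**
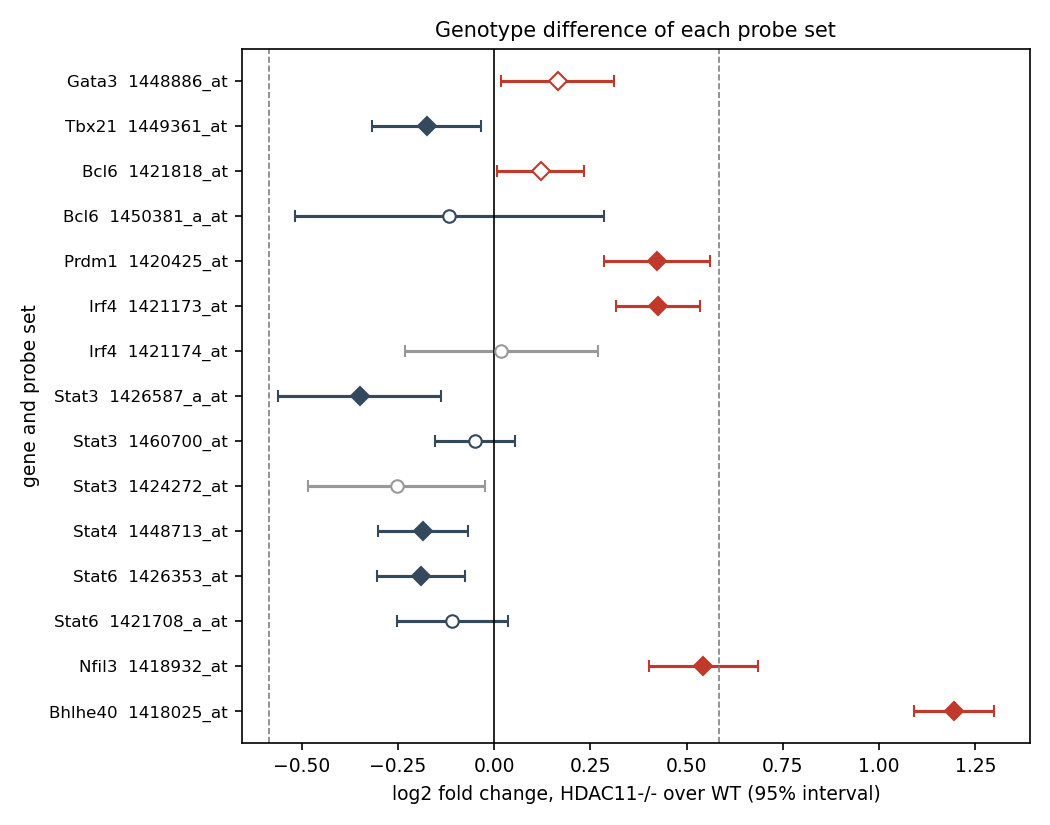
Log2 fold change, HDAC11-/- over WT (x axis), with its 95% confidence interval from limma, for each member probe set (y axis). Diamonds are the brightest probe set of a gene, filled symbols have an adjusted p under 0.05, grey marks probe sets with a genotype whose arrays all lay at or below the bacterial control, and dashed lines mark 1.5-fold either way; the interval of Bhlhe40 (1.09 to 1.30) lies wholly beyond the line, and that of Nfil3 (0.40 to 0.68) crosses it.

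The 3 STAT genes were lower by adjusted p, each in 1 probe set and each by less than 1.5-fold. Stat3 had the largest difference and 3 probe sets. Its brightest (1426587_a_at) measured 10.87, 10.78 and 10.62 in HDAC11-/- Tregs and 11.24, 11.08 and 11.01 in WT Tregs. The genotypes were separate although the spread within each exceeded that of Stat4 and Stat6 in their brightest probe sets. The log2 fold change was -0.35 (0.785-fold, SE 0.09, 95% confidence interval -0.56 to -0.14, limma adjusted p = 0.0179). Without HDAC11-/- replicate 3 it was -0.28 and missed the threshold (limma adjusted p = 0.0517).

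The other Stat3 probe sets did not pass. The second (1460700_at) measured 10.64, 10.69 and 10.71 in HDAC11-/- Tregs and 10.74, 10.73 and 10.73 in WT Tregs. Every HDAC11-/- array was again lower, but the log2 fold change was -0.05 (SE 0.04, limma adjusted p = 0.375). Its difference from the brightest probe set was 0.30 (SE 0.11, limma adjusted p = 0.0728). With probe sets whose suffix marks shared transcripts set aside, this one stands for Stat3, which then did not pass. The third (1424272_at) lay below the bacterial control on every array, at 4.64 to 4.91 in HDAC11-/- and 4.99 to 5.21 in WT, so no fold is given.

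Stat4, the transducer of IL-12 signals, and Stat6, that of IL-4, had log2 fold changes of similar size. Stat4 (1448713_at) measured 9.98, 10.06 and 10.08 in HDAC11-/- Tregs and 10.22, 10.26 and 10.19 in WT Tregs. Stat6 (1426353_at) measured 11.16, 11.18 and 11.18 in HDAC11-/- Tregs and 11.34, 11.32 and 11.42 in WT Tregs. Both were lower on every HDAC11-/- array. The log2 fold change was -0.18 for Stat4 (SE 0.05, 95% confidence interval -0.30 to -0.07, limma adjusted p = 0.0208) and -0.19 for Stat6 (SE 0.05, 95% confidence interval -0.30 to -0.08, limma adjusted p = 0.0167). About as many genes had larger as smaller absolute log2 fold changes, 50.9% larger than Stat4 and 49.7% larger than Stat6. Stat4 missed the threshold without HDAC11-/- replicate 1 (limma adjusted p = 0.0696) or 2 (0.0534) or WT replicate 2 (0.0560), and Stat6 without HDAC11-/- replicate 1 (0.0550) or 2 (0.0557). The second Stat6 probe set (1421708_a_at) measured 9.28, 9.19 and 9.11 in HDAC11-/- Tregs and 9.34, 9.24 and 9.33 in WT Tregs. These overlapped, with a log2 fold change of -0.11 (SE 0.06, limma adjusted p = 0.184), and its difference from the first probe set was 0.08 (SE 0.08, limma adjusted p = 0.469).

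The pathway genes around these factors did not all move with them. Of the Th1 axis, 14 of 15 listed genes were measured. Ifng, the Th1 cytokine, rose, with 8.55, 8.63 and 8.67 in HDAC11-/- Tregs and 7.87, 8.04 and 7.80 in WT Tregs (log2 fold change 0.71, limma adjusted p = 0.000475), while Tbx21 was lower. Its call was lost on the reference gene scale, at 0.57. Havcr2, an inhibitory receptor gene, was at least 1.34-fold higher, a bound because its WT arrays all lay at or below the bacterial control. The IL-18 receptor genes Il18r1 (-1.07, limma adjusted p = 1.95e-05) and Il18rap (-0.73, limma adjusted p = 0.00414) fell. By adjusted p alone 3 genes of the list were higher and 8 lower, against 22.9% and 23.2% of all genes. The median log2 fold change of the list was -0.23.

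Of the Th2 axis, 10 of 12 genes were measured, 2 fell, and the median log2 fold change was -0.12. Il17rb, a subunit of the IL-25 receptor, had a log2 fold change of -0.81 and Maf, a factor that activates Il4, one of -0.76. Ptgdr2, Il24 and Il5 lay below the bacterial controls in both genotypes. Of the Th17 axis, 9 of 13 were measured and 2 fell, Il1r1 (-1.30) and Ccr6 (-1.07), with a median of -0.08. Il17re was called lower by its other probe set only, which is the brightest on the WT arrays alone. The only Ccr6 probe set has a suffix for shared transcripts, so Ccr6 has no value once those are set aside. The same holds for Il17rb in the Th2 axis. Of the Tfh axis, 14 of 16 were measured, 1 fell and the median was -0.13. The gene that fell was Slamf6 (-0.73), a signalling receptor gene of T and B cell contacts. Without HDAC11-/- replicate 1, WT replicate 1 or WT replicate 3 the Tfh count was 2, with Il6ra or Il21 added. In the Th2, Th17 and Tfh lists no gene was called higher in limma or SAM. By unadjusted p under 0.05 in limma 1, 3 and 2 were higher, against 25.8% of all genes. By the same measure 5, 3 and 6 were lower, against 28.1%.

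Of the STAT pathway, 24 of 27 genes were measured and none was called in limma or SAM. By unadjusted p under 0.05 in limma 4 were higher and 13 lower, against 25.8% and 28.1% of all genes. By adjusted p alone 4 were higher and 11 lower, against 22.9% and 23.2%. The median log2 fold change was -0.16. The genes named next were chosen after their values were seen. Il6ra (-0.56) and Il6st (-0.41), which encode the IL-6 receptor chains upstream of STAT3, and Tyk2 (-0.45), a kinase of the IL-12 and IL-23 receptors, were lower by adjusted p in limma, at 0.00123, 0.000449 and 0.000404. The other lower genes were Pias3 (-0.50), Stat2 (-0.41), Pias1 (-0.35), Socs1 (-0.33), Ifnar2 (-0.30), Socs2 (-0.29), Il12rb1 (-0.22) and Jak3 (-0.13). The 4 higher genes were Pim1 (0.37), Stat5a (0.30), Il21r (0.21), which encodes the IL-21 receptor upstream of STAT3, and Cish (0.18). Without HDAC11-/- replicate 1 or WT replicate 3, Il6ra was called and the count was 1. Jak1 was called lower by a dimmer probe set only.

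Of the effector Treg genes, 13 of 15 were measured, 4 rose and none fell in limma or SAM, with a median log2 fold change of 0.16. By unadjusted p under 0.05 in limma 7 were higher and 3 lower, against 25.8% and 28.1% of all genes. Il10, which IRF4 and Blimp-1 promote and BHLHE40 represses in mouse T cells, measured 8.53, 8.54 and 8.49 in HDAC11-/- Tregs and 7.14, 7.13 and 7.04 in WT Tregs. The genotypes were more than 1 log2 unit apart, and the log2 fold change was 1.41 (limma adjusted p = 7.32e-06). By qPCR, the study reported no significant difference in IL-10 expression between HDAC11-/- and WT Tregs, whether resting or activated. The other genes that rose were Gzmb (2.06), a cytotoxic granule protease gene, Klrg1 (1.11) and Ccr8 (0.96), surface markers of effector Tregs.

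Of 17 measured partner factors (20 listed), 3 rose, 1 fell and the median log2 fold change was 0.12. The AP-1 genes Fos (5.65), Jun (4.96) and Junb (2.39) rose, while Batf3 (-0.86), a leucine zipper factor, fell. The study's own qPCR also found Fos, Fosb, Jun and Junb higher in HDAC11-/- Tregs. Runx1 and Id2 were each called lower by a dimmer probe set only. The brightest Id2 probe set was higher by adjusted p (0.33, limma adjusted p = 0.0267), but Id2 was called lower with probe sets for shared transcripts set aside. Batf, the partner that binds with IRF4 in T cells, did not pass (0.09, limma adjusted p = 0.153). The AP-1 genes also belong to the early response list, genes that many stimuli induce rapidly. All 16 early response genes were measured, 10 rose and none fell in limma or SAM (0 lower by unadjusted p under 0.05), with a median of 1.91 and a summed linear level of 59957 to 60268 in HDAC11-/- and 14081 to 14393 in WT. All 8 measured proliferation genes rose, with a median of 2.49. The part of these in the differences of Bhlhe40, Nfil3, Irf4 and Prdm1 was not tested. The same 10 early response genes were called higher whichever array was left out, and the other 6 were not called, with log2 fold changes of -0.16 (Egr3) to 0.47 (Atf3).

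**Figure D3:**
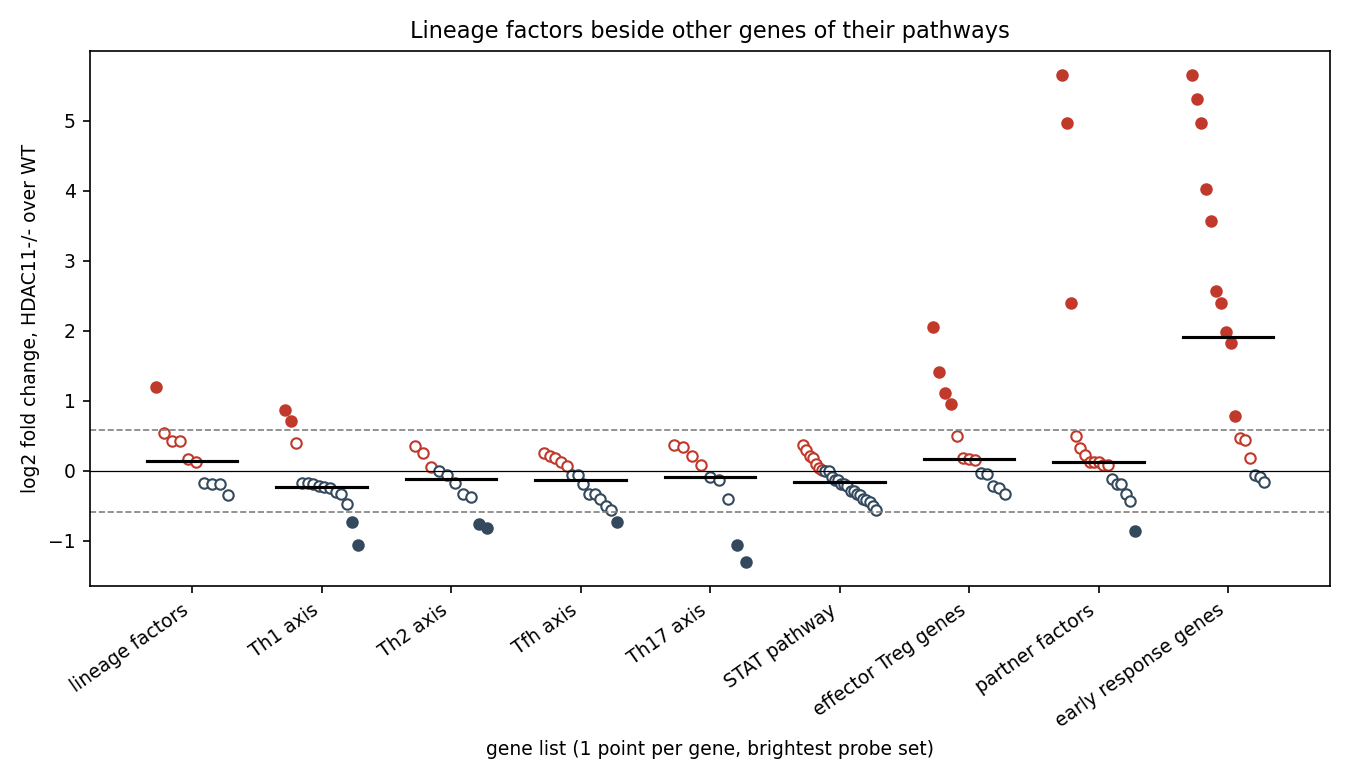
Log2 fold change, HDAC11-/- over WT, of the measured genes of each list, 1 point per gene by its brightest probe set, filled where called, red above 0 and dark blue below, with a black bar at the list's median and dashed lines at 1.5-fold either way. The medians run from -0.23 in the Th1 axis to 1.91 in the early response genes among the lists of the T helper programs, partners and early response, against -0.04 over all genes.

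The direction of the 4 higher members held in every alternative tried, including leaving out each array. Over those alternatives the log2 fold change of Bhlhe40 ran from 1.05 to 1.22, that of Nfil3 from 0.40 to 0.59, that of Irf4 from 0.28 to 0.45 and that of Prdm1 from 0.28 to 0.46. Each lowest value came from scaling on the reference genes, and the largest adjusted p of limma or SAM q among these members was 0.00859. The 4 lower members kept their direction but not always the threshold. Under SAM only Stat3 passed, and on the bacterial control scale Stat3 and Stat6.

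**Figure D4:**
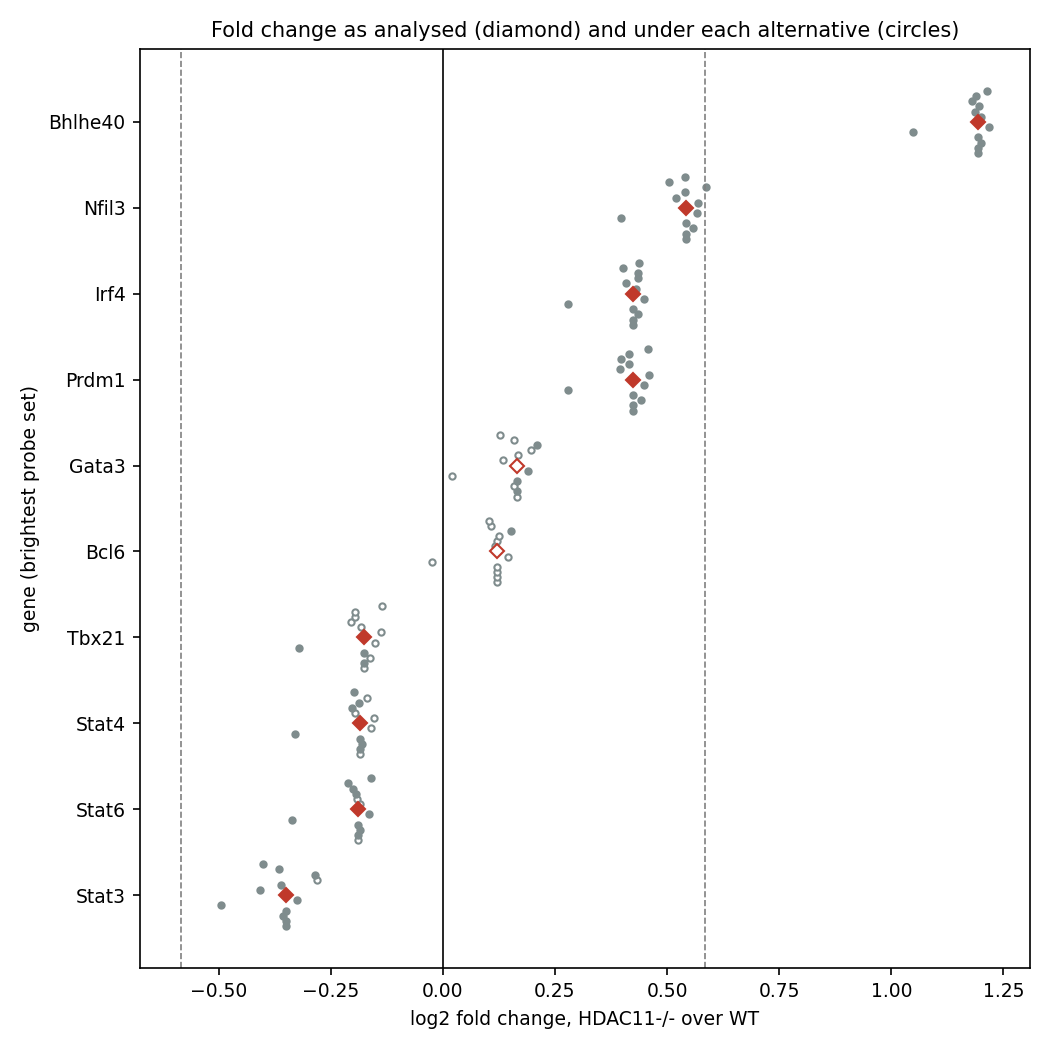
Log2 fold change, HDAC11-/- over WT (x axis), of the brightest probe set of each member (y axis), with 1 circle per alternative spread down the row, diamonds for the values as analysed, filled symbols for an adjusted p under 0.05 and dashed lines at 1.5-fold either way. Bhlhe40, Nfil3, Irf4 and Prdm1 stay filled throughout, while Tbx21, Stat3, Stat4 and Stat6 turn open in some, and Bcl6 reaches -0.025 on the reference gene scale.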

How the data were processed

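The authors isolated RNA with RNeasy kits, amplified it with a biotin label and hybridised it to Affymetrix Mouse430A arrays, which they normalized by robust multiarray average (RMA) in MAYDAY. The deposited table holds log2 values of 22671 probe sets on 6 arrays. The probe definitions and genome build behind it are not given in the sources used here. RMA forces like distributions on the arrays, and its output was used unchanged.

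Control probe sets (45) were not tested. Platform annotation assigned a single symbol to 20380 of the remaining 22626, several to 691 and none to 1555. limma 3.58.1 (R 4.3.3) was fitted with lmFit and eBayes to all 6 arrays with genotype as the only term, and Benjamini-Hochberg adjustment ran over all 22626. The thresholds, an adjusted p of 0.05 and a 1.5-fold difference, follow the methods. To compare probe sets of a gene, limma was fitted to their difference on each array. Where all arrays of a genotype lay at or below the highest of 27 bacterial controls, the fold is a bound, with the higher of control and measured value standing for that genotype. SAM used all 20 labelings. Precision is limited by the number of arrays. Of these procedures, the limma fit with genotype as the only term was tested on simulated data.

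The members and gene lists were chosen with earlier results of these data known. Named were all members, Hdac11, Foxp3, up to 4 called genes per pathway list and direction with the smallest adjusted p, and up to 2 genes per marker list. Other named genes, and the promoter motifs, were chosen after their values were seen. The alternatives were SAM, limma with a trended robust prior, weighted arrays, a replicate block, 2 other scales, a filter on dim probe sets, other fold thresholds, another choice of probe set for a gene, and each array left out in turn. Promoters came from RefSeq, and figures were drawn with matplotlib 3.10.9.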

Additional observations from a re-analysis of the deposited data

How the results depend on the processing

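Only 3 arrays a genotype, without raw probe values or detection calls, limit the precision, and dim probe sets near the bacterial controls carry no readable fold. Without a fold threshold 4 member genes and 4 member probe sets were called higher and 4 genes and 4 probe sets lower, against 1 and 0 with it. At least 2-fold left both counts as they were. Leaving out 1 array gave 1 to 2 genes and 1 to 2 probe sets called higher. Members lower by adjusted p alone, 4 as analysed, numbered 1 under SAM, 2 on the bacterial control scale and 1 to 3 with an array left out (1 without HDAC11-/- replicate 1 or 2), and members higher numbered 4 to 6. Of the comparisons of single member probe sets with their alternatives, 158 kept direction and side of the threshold, 18 lost it, 11 gained it and 6 turned sign. Those 6 were Bcl6 1421818_at on the reference gene scale (-0.025), Bcl6 1450381_a_at without WT replicate 1 (0.059), where leaving out arrays spanned -0.29 to 0.059, and Irf4 1421174_at on the reference gene scale (-0.13), without HDAC11-/- replicate 2 (-0.015) or 3 (-0.039) and without WT replicate 1 (-0.057), where leaving out arrays spanned -0.057 to 0.11. The cause was not tested. The dim filter, which removed the dim Irf4 probe set, gave 0 differing probe set pairs, and leaving out arrays gave 0 to 1.

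On the reference gene scale, which shifts HDAC11-/- down by 0.15 relative to WT, the lists had 3 STAT pathway genes and 3 Tfh axis genes called lower, against 0 and 1 as analysed, and 1 Th1 axis gene called higher, against 2. Leaving out an array gave 0 to 1 STAT pathway genes and 1 to 2 Tfh axis genes called lower. These list results were examined under alternatives chosen after seeing the data.

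The labels number the arrays of each genotype 1 to 3. Deviations of same-numbered arrays correlated at 0.23, -0.02 and 0.16, and those of differently numbered arrays at -0.21 to 0.06. Whether same-numbered arrays share more than a number is not known here. With the number as a replicate block 1 member was called higher and 0 lower, 5 were higher and 4 lower by adjusted p (adding Gata3), and 2 probe set pairs differed, against 1. Over all probe sets the block gave 877 higher and 1154 lower calls.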
